A study of Rattus norvegicus with 6 samples.

Results

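Among the genes of middle abundance in rat marrow-derived macrophages, 550 lay lower, and 4 higher, in wild type replicate 1 and knockout replicate 2 than in all 4 remaining libraries of both genotypes. These 554 genes of 7602 in the abundance range, and of 29516 Ensembl genes listed, were chosen by their counts in all 6 libraries. Counts were scaled to CPM (a gene's share of all gene counts in a library times 1000000), and the range was a mean wild-type level of 10 to under 1000 CPM. A gene was taken as higher when the lower of these libraries, called the pair from here on, was at least 15% above the highest of the other 4. It was taken as lower when the lowest of the other 4 was at least 15% above the higher of the pair. The ratio of these nearest values is the margin.

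The study measured polyadenylated RNA in macrophages grown from bone marrow of Wistar-Kyoto rats, a strain susceptible to experimental crescentic glomerulonephritis. Wild-type rats gave 3 libraries and rats carrying a knockout of Cyp2j4 gave 3, and all are of the same strain and, per the labels, had no further treatment listed. How the knockout was made, the age and sex of the rats, and the days of culture are not given in the labels. No label ties wild type replicate 1 to knockout replicate 2, and whether they shared a culture, a day or a preparation was not tested.

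Macrophages cultured from marrow arise from progenitors that divide and mature under colony-stimulating factor 1, and serve as a model of tissue phagocytes that clear debris and release cytokines and lipid mediators. Cyp2j4 is an epoxygenase of the cytochrome P450 family, which turns arachidonic acid into epoxyeicosatrienoic acids, which act on vascular tone and inflammation. CPM is a relative scale, on which a greater share for abundant transcripts leaves a smaller share for all others.

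The deposited counts carry Ensembl IDs without symbols, and 0 of the 29516 IDs matched the RefSeq table of assembly GRCr8 or its promoters. Gene roles, pathway lists, cell type markers, promoter sequences and Cyp2j4 itself were therefore not analysed here, and the macrophage label was not checked against markers. Members are described by their values, with 2 IDs given in each direction. Gene counts per library ranged from 21590429 to 33916549, with 33257723 in wild type replicate 1 and 23923666 in knockout replicate 2. Neither library of the pair was the deepest or the shallowest of the 6.

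The lower genes were far more numerous than the higher genes. Of the 7602 genes in the range, 7.23% were lower by the margin and 0.0526% were higher. These shares are the rule's own outcome and were not tested. With no margin, the pair lay below all 4 other libraries at 2276 genes (29.9%) and above them at 570 (7.50%). This imbalance depended on the scaling. After scaling with TMM (trimmed mean of M values, which aligns the bulk of genes rather than the totals), 326 genes were lower and 33 higher by the margin. With DESeq2 size factors there were 305 lower and 44 higher. The lower genes under both scalings were all among the 550, and the 4 higher genes were among the 33 and the 44. With no margin the split went from 80.0% lower on the CPM scale to 52.4% with TMM and 48.4% with DESeq2 size factors. The lower genes thus outnumbered the higher genes at the 15% margin under all 3 scalings, while with no margin they did so clearly on the CPM scale only. The median log2 ratio of the pair to the other 4 over all 7602 genes moved from -0.07 in CPM to 0.01 with TMM. The median over the 550 lower genes was -0.59 in CPM and -0.51 with TMM.

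ENSRNOG00000043490 had the widest margin among the lower genes, at 1.66. Its level was 7.998 CPM in wild type replicate 1 and 5.18 CPM in knockout replicate 2. It stood at 13.8 and 13.2 CPM in wild type replicates 2 and 3, and at 14.0 and 13.3 CPM in knockout replicates 1 and 3. The rule places the pair below all 4 other libraries and favours genes at which these lie close together. Knockout replicate 2 was the lower of the pair. The counts behind these levels were 266 and 124 in the pair and 294 to 449 in the others. The mean over wild-type libraries was 11.7 ± 3.19 CPM, and over knockout libraries 10.9 ± 4.92 CPM (SD, n = 3 each).

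ENSRNOG00000006967 was second by margin (1.62) and showed the deepest drop of all lower genes in knockout replicate 2. Wild type replicates 1, 2 and 3 stood at 22.0, 38.8 and 37.6 CPM. Knockout replicates 1, 2 and 3 stood at 41.1, 7.57 and 35.7 CPM. In wild type the outlying library was 1.74-fold under the mean of the others, and in knockout 5.08-fold. The genotype means, 32.8 ± 9.36 CPM and 28.1 ± 18.0 CPM (SD, n = 3 each), carry this spread, and the rule makes the groups overlap.

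**Figure D1:**
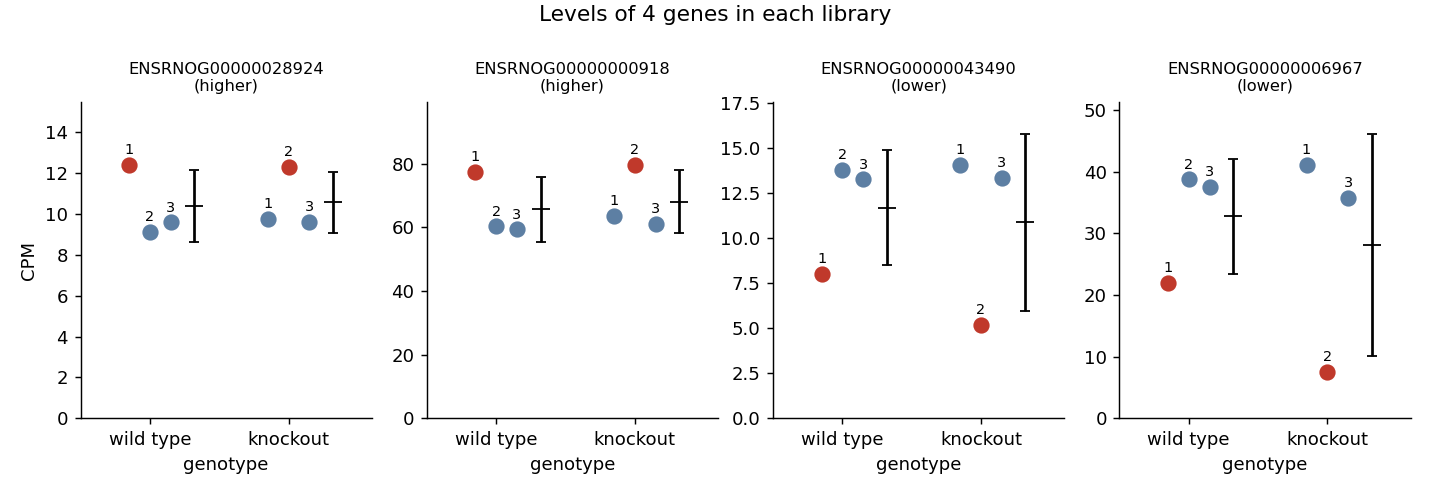
Levels in CPM (vertical axes, from 0) of the first 2 higher and the first 2 lower genes by margin, in wild type and knockout; numbers mark replicates, red points the pair, blue points the other libraries, and black bars the mean and SD of 3 libraries. By the rule, 1 red point in each genotype stands apart from the blue points, below them in ENSRNOG00000043490 and ENSRNOG00000006967 and above them in ENSRNOG00000028924 and ENSRNOG00000000918.

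Over the 550 lower genes the pair was graded, with knockout replicate 2 lower than wild type replicate 1. Relative to the mean of the 4 other libraries, the median level was 76.9% in wild type replicate 1 (range 57.2% to 86.2%) and 55.8% in knockout replicate 2 (range 19.8% to 82.6%). The medians of the other libraries were 97.9% and 97.0% in wild type replicates 2 and 3, and 105% and 99.7% in knockout replicates 1 and 3. Over all 7602 genes of the range the medians were 97.0% in wild type replicate 1 and 92.2% in knockout replicate 2, so the same order was seen there. By the rule only the pair can hold the lowest place. Knockout replicate 2 was the lowest of the 6 libraries at 538 of the 550 genes, and wild type replicate 1 at the remaining 12. Knockout replicate 1 was the highest at 340 genes, knockout replicate 3 at 101, wild type replicate 2 at 65 and wild type replicate 3 at 44. These lowest and highest places were not counted over the range, and nothing is read from them.

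Within each genotype the sizes differed. Wild type replicate 1 lay a median 1.27-fold under the mean of wild type replicates 2 and 3 (range 1.16 to 1.74). Knockout replicate 2 lay a median 1.84-fold under the mean of knockout replicates 1 and 3 (range 1.18 to 5.08). Over all 7602 genes these medians were 1.05- and 1.06-fold, and the upper quartiles 1.12- and 1.28-fold. A wider spread in knockout replicate 2 was thus seen over the range as well. The drop was larger in knockout replicate 2 at 540 of the 550 genes, which was not counted over the range. It reached 2-fold there at 198 genes, 3-fold at 35 and 4-fold at 6, while in wild type replicate 1 it reached 1.5-fold at 30 genes and 2-fold at 0. Over the range, 202 genes were 2- to 3-fold lower in knockout replicate 2 and 35 at least 3-fold lower. On the log2 scale wild type replicate 1 lay a median 45.5% of the way from the mean of the 4 other libraries to knockout replicate 2, with quartiles of 38.1% and 57.7%.

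**Figure D2:**
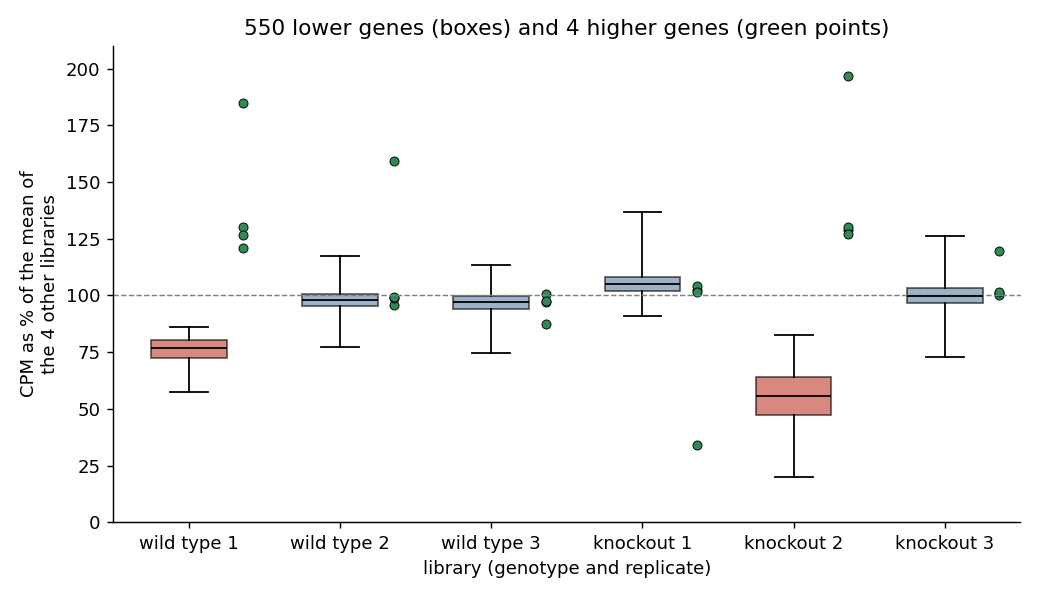
Level in each library as a percentage of the gene's mean CPM over the 4 other libraries; boxes show the median, quartiles and full range of the 550 lower genes (red for the pair, blue for the others) and green points the 4 higher genes. The medians of the red boxes are 76.9% and 55.8%, and those of the blue boxes 97.0% to 105%.

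The coefficient of variation among the 4 other libraries had a median of 5.54% over the 550 lower genes. The rule compares the lowest of these 4 libraries with the pair and so favours genes at which the 4 lie close together, and nothing is read from this value. The lowest count of a lower gene in any library was 95, and the median of these lowest counts was 392.5, which gives a counting error of 5.05%. Counting error was therefore up to 10.3% for the weakest library of a member, which is not small beside a margin of 15%. When all libraries were thinned to 21590429 counts, 556 genes were lower and 5 higher, of which 470 and 4 were members. The members nearest the threshold had margins of 1.1501 (15.03 CPM in the nearer of the pair, 17.3 CPM in the nearest other library) and 1.1501 (20.1 and 23.1 CPM). The genes just outside had margins of 1.14997 (14.0 and 16.2 CPM) and 1.1498 (24.9 and 28.6 CPM). On the higher side the nearest members had margins of 1.19 and 1.16, and the nearest genes outside 1.1495 and 1.1463.

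The median log2 ratio of the pair to the other 4 was 0.37 over the 4 higher genes, against -0.59 over the lower genes. ENSRNOG00000028924 had the widest margin (1.26), with 12.4 CPM in wild type replicate 1 and 12.3 CPM in knockout replicate 2. The other 4 libraries lay at 9.14, 9.58, 9.77 and 9.62 CPM (wild type replicates 2 and 3, knockout replicates 1 and 3). Its excess was alike in both genotypes, 1.32-fold in wild type and 1.27-fold in knockout. ENSRNOG00000000918 stood at 77.5 and 79.6 CPM in the pair, and at 60.3, 59.4, 63.6 and 61.2 CPM in the same other libraries. The pair exceeded the mean of the others 1.29-fold at this gene. The third higher gene showed 12.4 and 13 CPM against 9.995 to 10.4 CPM. The fourth was not of the same kind, since it varied widely outside the pair as well. It had 35.0 and 37.3 CPM in the pair, 30.2 and 16.6 CPM in wild type replicates 2 and 3, and 6.44 and 22.6 CPM in knockout replicates 1 and 3.

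The deviation of the pair was also counted within each genotype, on the values that the rule used. In wild type, replicates 2 and 3 both exceeded replicate 1 by at least 15% at 952 of the 7602 genes (12.5%). In knockout, replicates 1 and 3 both exceeded replicate 2 by as much at 2358 genes (31.0%). Both held at 798 genes, 83.8% of the wild-type list and 33.8% of the knockout list. By the rule every one of the 550 lower genes meets both conditions and is among the 798, so nothing is read from these shares. Opposite deviations were few: 7 of the 952 genes (0.735%) were at least 15% higher in knockout replicate 2 than in both other knockouts. The share over the range was low as well, 537 of 7602 genes (7.06%). Conversely, 62 genes were at least 15% higher in wild type replicate 1 than in both other wild types. Of these, 17 (27.4%) were also higher in knockout replicate 2 and 0 lower. With TMM scaling 494 genes (6.50% of the range) were low in wild type replicate 1 and 1865 (24.5%) in knockout replicate 2. The shared low genes numbered 418, which is 84.6% of the 494 and 22.4% of the 1865. The genes high in both rose to 90, which is 44.1% of 204 and 6.90% of 1305 (17.2% of the range). Of the 494 genes, 3 were high in knockout replicate 2. On the CPM scale the genes low or high in both hold all members, which were chosen on the same values. All of these counts are a description.

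**Figure D3:**
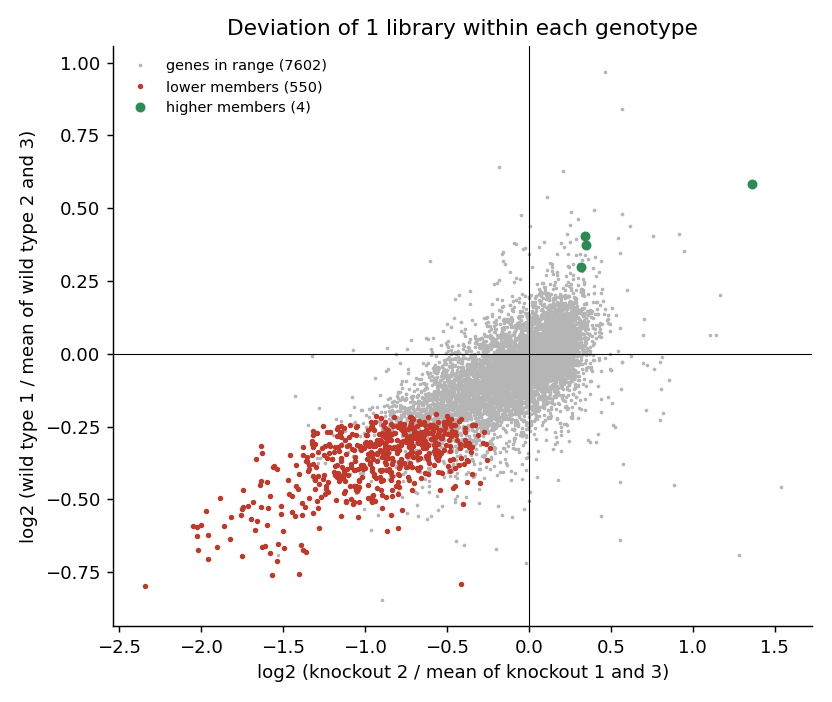
Log2 ratio of knockout replicate 2 to the mean of knockout replicates 1 and 3 (horizontal) against log2 ratio of wild type replicate 1 to the mean of wild type replicates 2 and 3 (vertical) for 7602 genes in grey, with the 550 lower genes in red and the 4 higher genes in green. The cloud extends farthest to the lower left, where ratios reach -2.34 in knockout and -0.80 in wild type among the red points.

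Across the 7602 genes, the deviation in wild type replicate 1 correlated with that in knockout replicate 2 (Pearson r = 0.711, Spearman rho = 0.696). Genes are not independent replicates, all values come from the same 6 libraries, and no p is given. The rule singled out these libraries and used these values, members included, so the correlation is a description only. The correlation was 0.709 over the 5998 genes under 100 CPM and 0.691 over the 1604 genes of 100 CPM and more within the range. At genes over 1000 CPM, outside the range, it was 0.422 (97 genes).

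The deviation was graded on the lower side. The 35 genes of the range that were at least 3-fold lower in knockout replicate 2 than the mean of the other knockouts were all among the 550 lower genes. The rule itself makes wild type replicate 1 the lowest wild-type library at every lower gene, and so at each of the 35. Its median drop at these genes was 1.48-fold. Of 202 genes that were 2- to 3-fold lower in knockout replicate 2, 163 were members, and wild type replicate 1 was the lowest wild type at 201, by a median of 1.30-fold. Of 695 genes that were 1.5- to 2-fold lower, 259 were members, and the median drop in wild type replicate 1 was 1.20-fold. Of 1903 genes that were lower by 15% up to 1.5-fold, 93 were members, and the median drop was 1.1-fold. For comparison, 3827 genes of the range were in neither a lower nor a higher class of knockout replicate 2. Wild type replicate 1 was the lowest wild type at 1793 of these (46.85%), with a median drop of 1.02-fold. Class by class, a larger drop in knockout replicate 2 went with a larger drop in wild type replicate 1. Members make up most of the steepest classes, and the rule requires them to be low in wild type replicate 1. The order of the classes is therefore a description only.

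Values on the higher side depended on the scaling. On the CPM scale, at 915 genes that were 15% to 1.5-fold higher in knockout replicate 2, wild type replicate 1 was 1.03-fold higher at the median. At the 25 genes at least 1.5-fold higher there, the median log2 ratio in wild type replicate 1 was -0.01, and it was the highest wild-type library at 6 of them. With TMM scaling the 2 classes of 15% to 1.5-fold were alike in size. The median log2 ratio in wild type replicate 1 was -0.09 over the 1517 genes lower in knockout replicate 2 and 0.10 over the 1772 genes higher there. Wild type replicate 1 was the lowest wild type at 69.3% of the former and the highest at 74.4% of the latter. Beyond 1.5-fold the medians after TMM scaling were -0.21, -0.32 and -0.52 in the 3 lower classes, and 0.06 over the 46 genes of the higher class.

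**Figure D4:**
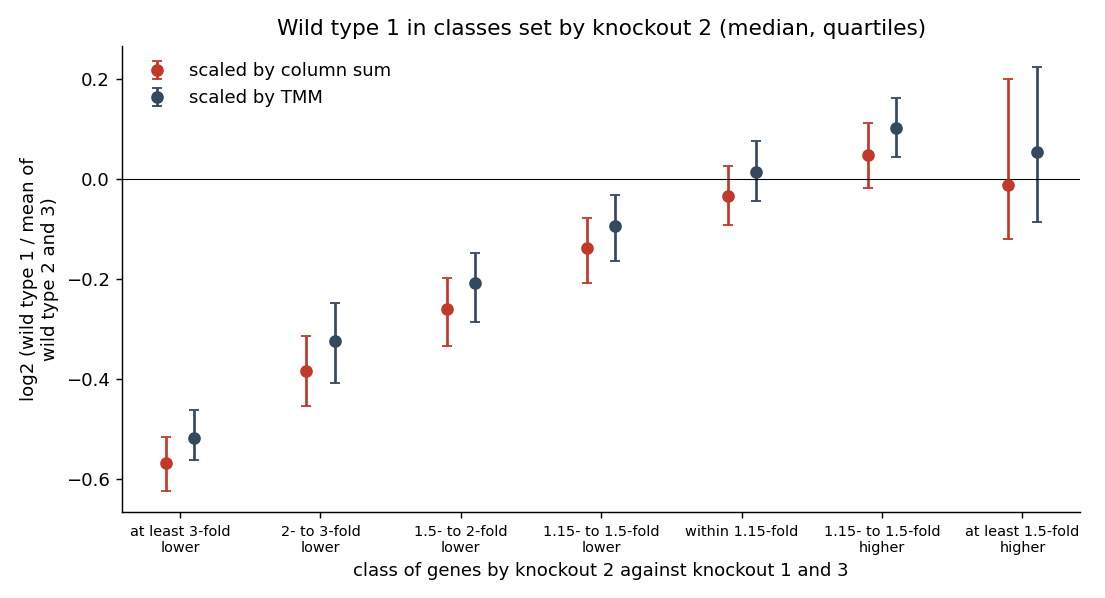
Median (points) and quartiles (bars) of the log2 ratio of wild type replicate 1 to wild type replicates 2 and 3, for genes of the range in 7 classes set by the fold of knockout replicate 2 against the other knockouts, in CPM (red) and after TMM scaling (dark). The red medians go from -0.57 in the class at least 3-fold lower to 0.05 in the class 15% to 1.5-fold higher, and the last class is at -0.01.

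Lower genes were more frequent among weakly expressed genes. Their mean level over the 6 libraries had a median of 25.6 CPM, against 39.0 CPM over the range, and reached 685 CPM. They made up 10.6% of genes of 10 to under 30 CPM (309 of 2913) and 6.22% of genes of 30 to under 100 CPM (192 of 3085). At 100 to under 300 CPM the share was 3.36% (41 of 1222), and at 300 to under 1000 CPM it was 2.09% (8 of 382). Over the lower genes of these classes the median drop was 1.86-, 1.82-, 1.77- and 1.76-fold in knockout replicate 2. In wild type replicate 1 it was 1.286-, 1.252-, 1.21- and 1.252-fold. Every lower gene had to clear the margin in both libraries, so nothing is read from the likeness of these medians. Over all genes of the classes the median log2 ratio went from -0.12 to 0.03 in knockout replicate 2. In wild type replicate 1 it went from -0.09 to -0.02. Counting error is larger in the weaker classes.

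The same direction was seen below the range and the opposite above it. Of 2987 genes of 1 to under 10 CPM, 284 (9.51%) would have met the rule as lower and 8 (0.268%) as higher. Of the 97 genes of 1000 CPM and above, 0 met the margin either way. With no margin the pair lay above all other libraries at 28 of these 97 (28.9%) and below them at 3 (3.09%). With TMM scaling these counts were 44 and 2. The median log2 ratio over all genes of a class went from -0.13 (wild type replicate 1) and -0.15 (knockout replicate 2) at 1 to under 3 CPM to 0.10 and 0.13 at the 10 genes over 10000 CPM.

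**Figure D5:**
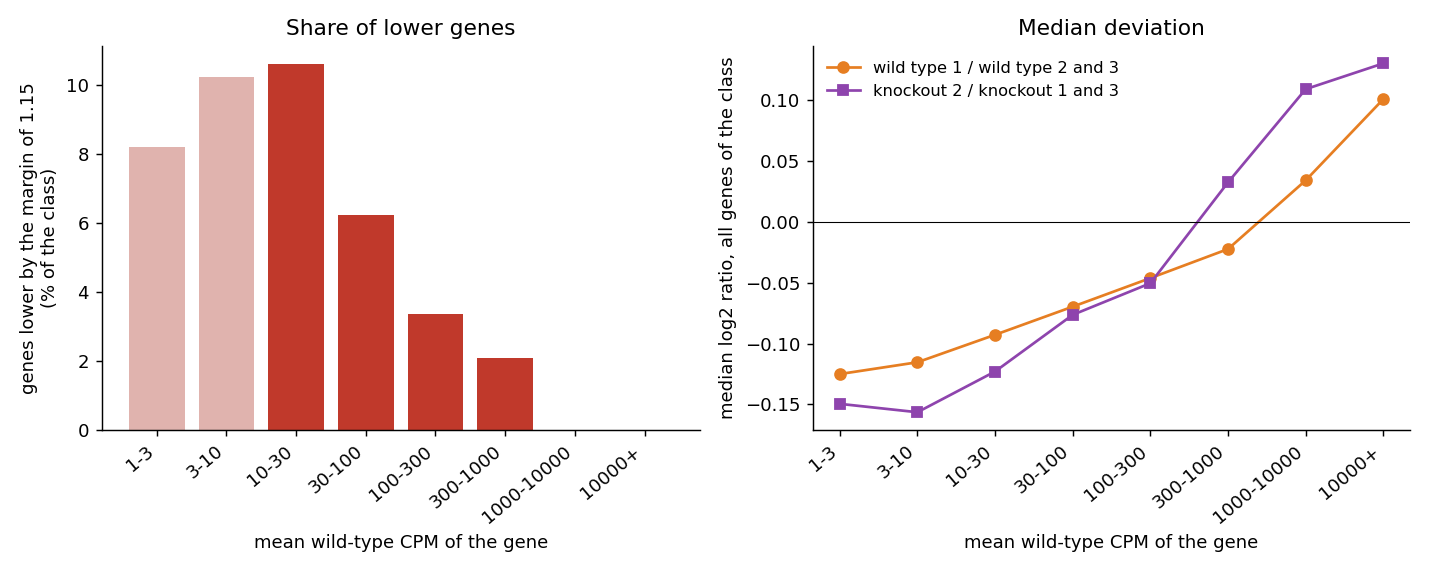
Left, share of genes lower in the pair by the margin of 15% in classes of mean wild-type CPM (dark bars, the range of the rule; pale bars, classes outside it); right, median log2 ratio over all genes of each class for wild type replicate 1 (orange) and knockout replicate 2 (purple), each against the other libraries of its genotype. The share peaks at 10.6% at 10 to under 30 CPM and is 0 over 1000 CPM, where both medians are above 0.

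Several properties of whole libraries were set beside this pattern. Genes of 1000 CPM and above took 38.8% of counts in wild type replicate 1 and 41.4% in knockout replicate 2. They took 36.01% and 36.97% in wild type replicates 2 and 3, and 37.1% and 39.0% in knockout replicates 1 and 3. The share in both libraries of the pair lay above that in 3 of the other 4, and knockout replicate 3 lay between the libraries of the pair. The part of this share in the lower levels of the pair was not tested. The 550 lower genes together took 2.23% and 1.62% of counts in the pair and 2.80% to 3.03% in the other libraries, and the 4 higher genes 0.0137% and 0.0142% against 0.00902% to 0.0110%. Reads outside annotated genes made up 10.6% of listed reads in wild type replicate 1 and 9.50% in knockout replicate 2, against 10.3% to 10.7% in the others. Reads ambiguous between genes were 0.907% and 0.886% against 0.799% to 0.943%. Reads that aligned to several places were 7.81% and 8.28% against 7.79% to 8.30%. None of these 3 read classes placed both libraries of the pair on 1 side of the other 4. Fewer cells of a type and less RNA per cell cannot be told apart in such bulk libraries.

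The study's own comparison, knockout against wild type, called none of the members. By edgeR's quasi-likelihood test with Benjamini-Hochberg adjustment over 11645 genes, 14 genes (0.120%) were called at an adjusted p under 0.05, and 0 of the 554 members, all of which were tested. The lowest adjusted p of a member was 0.573. DESeq2 called 196 of 16319 genes (1.20%) and limma-voom 14 of 11645 (0.120%), and each called 0 of the 554 members. An unadjusted p under 0.05 was found at 891 genes (7.65%) and 1 member. The rule sets apart 1 library in each genotype, so that the groups of every member overlap and its spread is large by construction. The median standard error of the log2 fold change was 0.21 over the lower genes and 0.10 over the range, and nothing is read from the low count. For ENSRNOG00000043490 the log2 fold change was -0.06 ± 0.34 and for ENSRNOG00000006967 -0.19 ± 0.51 (SE, n = 3 per group, edgeR adjusted p = 0.989 and 0.980). For ENSRNOG00000028924 it was 0.08 ± 0.18 and for ENSRNOG00000000918 0.10 ± 0.17 (SE, n = 3 per group, edgeR adjusted p = 0.978 and 0.950).

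The genotype values of the lower genes depended on which libraries were compared. Between the libraries of the pair, knockout replicate 2 lay below wild type replicate 1 by a median log2 ratio of -0.45. Between the 4 other libraries, the mean of knockout replicates 1 and 3 was above that of wild type replicates 2 and 3 at 434 of the 550 genes (78.9%), with a median log2 ratio of 0.07. Over the 7602 genes of the range the share was 36.4% and the median -0.05. Both knockouts lay above both wild types at 235 lower genes (42.7%) and below them at 30 (5.45%), against 16.8% and 33.7% of the range. The rule used the values of these 4 libraries, so this contrast describes the members and is no test of genotype. With all 6 libraries the median edgeR log2 fold change was -0.02 over the lower genes and -0.02 over the range.

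When both libraries of the pair were left out, an edgeR fit on the other 4 called 87 of 11728 genes (0.742%) and 2 of the 550 lower genes, both higher in knockout (log2 fold changes from 0.49 to 0.75, adjusted p from 0.0177 to 0.0482). At an unadjusted p under 0.05 it gave 115 lower genes, all higher in knockout, where 15.3% of all genes passed and 8.54% passed as higher. The median log2 fold change in that fit was 0.10 over the 550 genes. With knockout replicate 2 alone left out, 250 of 11867 genes (2.11%) and 4 lower genes were called, all 4 higher in knockout with log2 fold changes of 0.45 to 0.84 (adjusted p 0.00648 to 0.0268). The unadjusted count was then 166, all higher in knockout, with 9.49% of all genes passing as higher, and wild type replicate 1, low by the rule, remained in the wild-type group. The counts of these libraries were used by the rule, so that these values describe the members and are no test of a genotype effect on them. The rule gives the lowest ranks to the pair at every lower gene. At 433 of the 550 (78.7%) knockout replicate 2 was the lowest library and another knockout library the highest. This order was not counted over the range, and nothing is read from it.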

How the data were processed

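RNA of bone marrow-derived macrophages was sequenced in 6 libraries, 3 per genotype, from poly-T selected RNA made into TruSeq libraries, per the labels' protocols. The authors deposited raw counts of reads per Ensembl gene, with no normalization. Per the submitters' processing notes the tools were TopHat2 and HTSeq with the rat build rn4. The notes give no version, annotation or strand setting, so that overlapping genes and near-identical copies may share reads. The 5 HTSeq summary lines were kept out of totals, and 0 columns belonged to other samples.

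The members' margin is a ratio of 1.15. CPM was computed from column sums with Python 3.11.15. Genotype was tested with edgeR 4.0.16 (filterByExpr, TMM, quasi-likelihood F test, genotype as the only term) in R 4.3.3, with DESeq2 1.42.0 and limma-voom (limma 3.58.1) as alternatives. The members and lists were chosen with earlier results of these data known. The labels give 3 rats per genotype without tying libraries to animals, so p-values measure the spread between libraries. No library was a copy of another of its group, since the lowest chi-square per degree of freedom between replicates was 9.85. The rule for genes given by ID took the first 2 per direction by margin, since no symbols were at hand. For the same reason the 23 gene lists, 15 marker lists and 16 promoter motifs were not run. Both scripts were tested on simulated data. Reads carry no molecular identifiers, so counting errors cover counting alone.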

Additional observations from a re-analysis of the deposited data

How the results depend on the processing

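The numbers of higher and lower genes followed the margin, the scaling and the range. They were 20 and 930 at a margin of 10%, 1 and 187 at 25%, 0 and 13 at 50%, 33 and 326 with TMM, 44 and 305 with DESeq2 size factors, and 12 and 834 from 1 CPM upward with no upper limit. A range set on all 6 libraries gave 4 and 547. Leaving out 1 library gave 8 to 179 higher and 571 to 2183 lower genes, the largest (179 and 2183) without wild type replicate 1, where knockout replicate 2 alone sets the rule, and 14 and 571 without knockout replicate 2. With knockout replicate 1, knockout replicate 3, wild type replicate 2 or wild type replicate 3 left out, 8, 25, 25 and 9 genes were higher. The rule then has fewer conditions, and 550 lower genes were among those of 4 of the 6 reduced sets (535 and 536 without wild type replicates 3 and 2, where the range moved). Members called between genotypes were 0 in every fit on 6 libraries and 0 to 4 with 1 left out. All genes called were 59 with no filter, 196 with DESeq2, and 1 to 250 with 1 library left out, the low counts being 4, 1 and 1 without wild type replicates 1, 2 and 3, and 6 and 2 without knockout replicates 1 and 3. Without the pair they were 87, and 2 members. The cause was not tested. The genotype log2 fold change went from -0.09 to 0.25 for ENSRNOG00000028924, from -0.07 to 0.27 for ENSRNOG00000000918, from -0.26 to 0.25 for ENSRNOG00000043490 and from -0.53 to 0.25 for ENSRNOG00000006967 with 1 library left out, and was 0.06 and 0.04 for the latter pair without both libraries. The ratio of the pair to the other 4 kept its sign at these 4 genes under both scalings. Other scalings for the gene lists were not run, for want of symbols. Thinning and the fit without the pair were chosen after seeing the data.

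With the replicate number as a block 27 genes and 0 members were called. The residuals of same-numbered libraries correlated at -0.439, -0.138 and 0.148, so the numbers were not taken as pairing. Wild type replicate 1 correlated best with knockout replicate 2 (0.445). Residuals were centred within each genotype, which ties these correlations to each other. They come from the same libraries as the rule, and the value is a description only.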
